A study of Mus musculus with 21 samples.

Results

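Thymocytes of OT-2 mice injected with agonist peptide were compared with thymocytes of OT-2 mice that were not injected, a comparison that the series' design text calls negative selection. The members were chosen by sample title: 3 arrays of peptide-injected OT-2 mice and 3 of OT-2 mice, 6 of the 21 arrays in all. Each array, an Affymetrix Mouse Gene 1.0 ST expression array, was hybridized with total RNA from CD4 CD8 double-positive thymocytes that had been isolated by flow sorting, and the replicates are described as biological in the design text. Both groups were C57 Bl/6 mice between 3 and 6 weeks old that carried the OT-2 T cell receptor transgene, and the injected mice received agonist peptide for that receptor intraperitoneally 3 hours before harvest. The labels name no vehicle injection for the control mice, so that peptide and the injection itself cannot be told apart. In such mice most developing T cells share the same prearranged receptor, and peptide given in vivo also reaches cells outside the sorted gate. As context, 3 wild-type arrays (C57 Bl/6, no peptide named) were read for the same genes. So were 3 arrays of peptide-injected OT-2 mice that also carried an HDAC7 deltaP transgene. The mice of both context groups were also between 3 and 6 weeks old. Those with the deltaP transgene received peptide 3 hours before harvest.

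The OT-2 receptor recognizes an ovalbumin peptide on MHC class II. A double-positive thymocyte whose receptor binds self peptide strongly is removed by apoptosis or diverted to another fate, and strong receptor signals are known to induce the orphan nuclear receptors of the Nr4a family and the BH3 protein Bim within hours. The same signals release NF-kB dimers from their inhibitors, and NF-kB in turn induces genes of its own inhibitors. Double-positive cells that have rearranged their receptor have largely left the cell cycle, while the blasts that precede them divide rapidly and make the sterols and nucleotides that division needs.

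All values are log2 RMA signals, a log-scale summary of the probes of each probe set, and a change is the difference between the mean of the 3 injected arrays and the mean of the 3 OT-2 arrays, with the standard error (SE) of a limma fit. A gene rose or fell when its p-value, adjusted by Benjamini-Hochberg over all 28923 probe sets tested, was under 0.05. The p-values measure the spread between these arrays, and 3 arrays per group limit the precision of every value. The OT-2 arrays (up to 6 decimals) and the injected arrays (3 decimals) lie in separately normalized sets of columns. Normalization and peptide therefore cannot be told apart. The SD over all probe sets was 2.23 to 2.26 in the OT-2 arrays and 2.15 to 2.18 in the injected arrays. Bright probe sets therefore read lower and dim ones higher after peptide: the median change was 0.06, 0.11, 0.05, -0.07 and -0.15 from the dimmest to the brightest quintile of probe sets. After quantile normalization of the 6 arrays together it was between -0.02 and -0.01 in every quintile. Because of this dependence on brightness, counts of list members against OT-2 are given with both scalings. Quantile normalization aligns the arrays as wholes. For a single probe set, the same call with both scalings therefore does not separate normalization from peptide. As deposited, 5631 probe sets were called (19.5% of those tested; 9.35% rose and 10.1% fell), and after quantile normalization 3721 were (12.9%; 5.9% rose and 6.96% fell). The same call with both scalings was made for 2944 (10.2%). The arrays of the groups did not overlap in 43.4% of all probe sets, among them all 2705 that rose and all 2926 that fell, so that a lack of overlap adds nothing to a call. The count as deposited was lower in every fit without 1 array, though to different degrees. It was 2274, 4332 and 4655 without injected arrays 1, 2 and 3 in that order, and 748, 1542 and 2115 without OT-2 arrays 1, 2 and 3. Of the 228 named probe sets that rose and the 448 that fell, 62 and 97 passed in all 6 fits that each omit 1 array, called leave-one-out fits below.

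**Figure D1:**
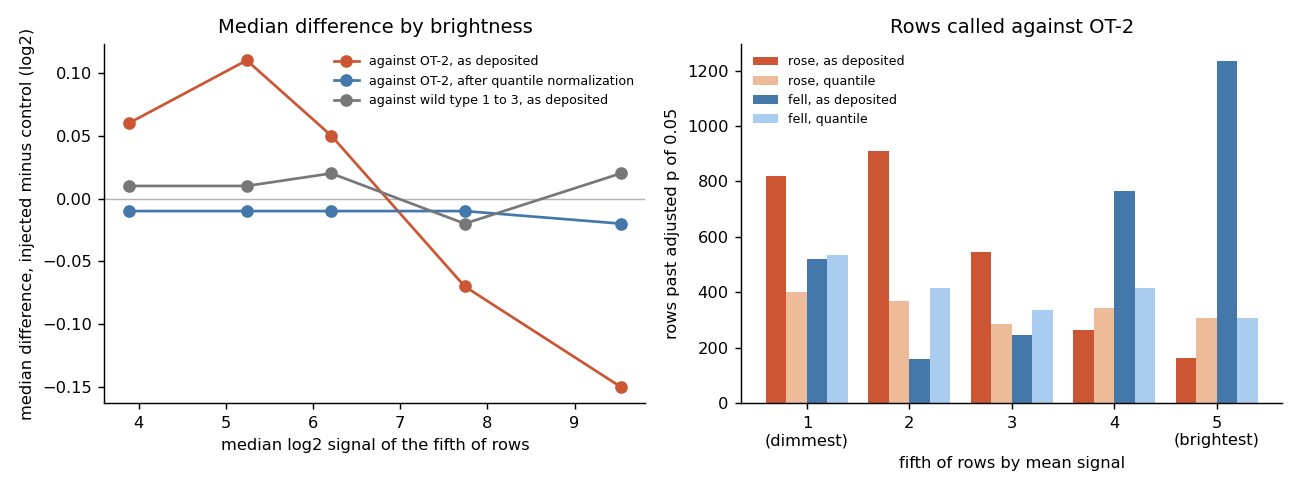
Left, the median difference in log2 signal (y axis) of each quintile of the probe sets against the quintile's median log2 signal (x axis), for the injected arrays against OT-2 as deposited and after quantile normalization, and against wild type 1 to 3. Right, the number of probe sets (y axis) that rose or fell against OT-2 in each quintile (x axis); as deposited, 165 rose and 1234 fell in the brightest quintile, and after quantile normalization 309 rose and 309 fell.

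Only genes that the authors listed in their own tables of changed genes carry a symbol here, 2111 of the 28923 probe sets, so the named members of every list below were picked by the authors on arrays of this series and their counts are not independent evidence. Of the 2301 rows in those 4 tables, 464 stand in the table of this comparison, and the rest come from other comparisons of the series. Among the probe sets with a symbol, 676 were called as deposited (32%; 10.8% rose and 21.2% fell) and 583 after quantile normalization (27.6%; 13% rose and 14.6% fell), and their median change was -0.10 and -0.03 with the respective scalings. A list's count is to be read against these shares. A 2-fold change as deposited with the same call after quantile normalization was found for 108 probe sets that rose and 9 that fell. Among these were 47 named genes that rose and 3 that fell. Of those without a symbol, 21 that rose and 1 that fell had a group mean above the median signal of all probe sets. Injected array 3 had the highest value in 27 of those 47 genes, injected arrays 1 and 2 in 10 each. Of all 2705 probe sets that rose, it was highest in 915.

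Markers of the labelled stage and of other cells were read next; the signals of different probe sets do not measure which gene is expressed more. In the OT-2 arrays the 8 double-positive markers with a symbol, of 13 listed, averaged 10.91 to 11.05, and in the injected arrays 10.47 to 10.61. Cd8b1, the gene of the CD8 beta chain, read 12.42 to 12.64 in OT-2 and 12.15 to 12.29 after peptide, and Rag1, the recombinase gene that marks the stage, 12.72 to 13.12 and 12.21 to 12.56. All 8 markers were lower after peptide as deposited, while Cd8b1 (0.00) and Thy1 (0.04) were not after quantile normalization. Ptcra and Themis fell, and after quantile normalization Ptcra alone, with a list median of -0.38 as deposited and -0.15 after quantile normalization. Ptcra is not particular to the labelled stage, being expressed before the receptor alpha chain is rearranged. Of the 6 named markers of mature single-positive cells 1 fell as deposited, Ms4a4b (-0.32), and 0 were called after quantile normalization. The markers of other cells were mostly without a symbol: 2 of 10 for NK cells, 2 of 10 for B cells, 3 of 24 for macrophages and dendritic cells, 1 of 18 for stroma, 1 of 10 for erythroid cells and 0 of 10 for granulocytes. The 3 macrophage and dendritic cell genes, Itgam, Lyz1 and Lyn, averaged 6.40 to 6.56 in OT-2 and 6.43 to 6.77 after peptide, and none of them was called. The genes of the other lists read higher. In OT-2 the NK cell genes averaged 7.95 to 8.05 and the B cell genes 7.58 to 7.79. Vim, of the stroma list, read 10.50 to 10.72 there and Tfrc, of the erythroid list, 8.81 to 9.20. Of the B cell genes, Cd79b, the gene of a B cell receptor chain, fell (-0.54 ± 0.08, adjusted p = 0.0102) and Blk, a kinase gene, read 7.95 in injected array 3 and 6.50 and 6.52 in the others. In bulk RNA of sorted cells a lower share of cells of one kind and less RNA per cell cannot be told apart.

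The 5 largest rises among the named genes, with both scalings, were those of Nr4a3, Nr4a1, Gadd45b, Tagap and Cd69. Nr4a1, the orphan nuclear receptor gene also known as Nur77, read 8.43, 8.45 and 8.52 in the OT-2 arrays and 11.65, 11.62 and 12.03 in the injected arrays. It rose by 3.30 ± 0.12 (9.86-fold, adjusted p = 3.0e-04). Its relative Nr4a3 read 5.37, 5.40 and 5.62 in OT-2 and 8.82, 9.10 and 10.13 after peptide, the largest rise of any named gene (3.89 ± 0.31, 14.8-fold, adjusted p = 0.0044). For both genes injected array 3 was the highest. Gadd45b, a stress and NF-kB response gene, rose by 3.22 ± 0.21 (9.31-fold, adjusted p = 0.0022) from 6.48 to 7.18 in OT-2 to 9.67 to 10.19. Tagap, which codes for a GTPase-activating protein of activated T cells, rose by 2.77 ± 0.35 (6.81-fold, adjusted p = 0.0081), and its near copy Tagap1, with which probes may be shared, did not pass (0.23). Cd69, the early activation marker that holds thymocytes in the thymus, read 8.79 to 9.06 in OT-2 and 11.24 to 11.61 after peptide, a rise of 2.57 ± 0.12 (5.92-fold, adjusted p = 8.1e-04). Injected array 3 was the lowest of the injected arrays for Cd69. Further down the order, Gpr183, the gene of an oxysterol-sensing receptor that guides lymphocytes, rose by 1.87 ± 0.15 (3.65-fold, adjusted p = 0.0044). All 6 genes passed after quantile normalization and in all 6 leave-one-out fits.

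**Figure D2:**
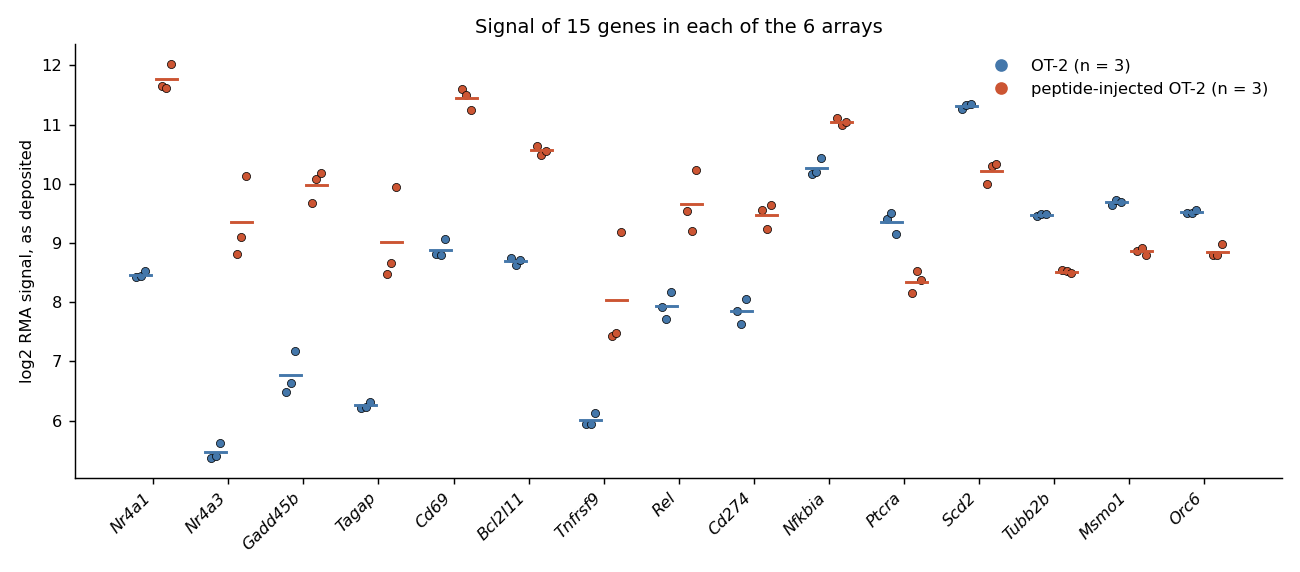
The log2 RMA signal as deposited (y axis) of 15 genes in each of the 3 OT-2 arrays and the 3 peptide-injected arrays; points are arrays and bars are group means. Nr4a1 lay between 8.43 and 8.52 in OT-2 and between 11.62 and 12.03 after peptide, and Tubb2b between 9.46 and 9.49 and between 8.49 and 8.54.

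Of 21 named immediate-early and receptor-induced transcription regulators 16 rose, 0 fell and 5 did not pass, and 7 of the 16 passed in all 6 leave-one-out fits. The median was 0.80 (15 rose and a median of 0.87 after quantile normalization), beside a median over all probe sets of 0.00 as deposited and -0.02. Egr2, a zinc finger factor gene of receptor signalling, read 7.18, 7.27 and 7.35 in OT-2 and 8.74, 8.54 and 8.94 after peptide and rose by 1.47 ± 0.11 (adjusted p = 0.0044). Egr1 rose by 0.80 ± 0.08 (adjusted p = 0.0065), and Nab2, the gene of a corepressor of Egr factors, by 1.03 ± 0.11 (adjusted p = 0.0065). Among the AP-1 genes Fos (1.06), Batf (1.13), Fosl2 (0.95) and Junb (0.35) rose. Jun changed by 0.36 ± 0.10 and stayed just above the threshold (adjusted p = 0.0512). Injected array 3 was the lowest of its group for Fos and Batf. Irf4 (1.22) and Irf8 (1.04), interferon regulatory factor genes of activated lymphocytes, also rose, although Irf4 passed in 2 and Irf8 in 1 of 6 leave-one-out fits. Bach2 (0.99), a repressor gene, passed as deposited only. Myc, which drives growth, read 9.39 to 9.74 in OT-2 and 9.18, 9.56 and 10.23 after peptide. These ranges overlapped and the change of 0.05 ± 0.25 did not pass (adjusted p = 0.902, and -0.01 after median centring).

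Inhibitors of the kinase cascade were called in part. Of 15 genes of MAPK and calcium feedback 4 rose, 0 fell and 11 did not pass (median 0.14; 5 rose and 0 fell after quantile normalization). Besides Tagap these were 3 genes. Dusp2, a nuclear phosphatase gene acting on MAP kinases, read 8.91, 8.92 and 9.07 in OT-2 and 10.36, 10.27 and 10.02 after peptide and rose by 1.25 ± 0.10 (adjusted p = 0.0045). Dusp5, whose product acts on ERK, rose by 1.03 ± 0.15 (adjusted p = 0.0104), and Rasa2, a Ras GTPase-activating gene, by 0.48 ± 0.10 (adjusted p = 0.0235, passing in 2 of 6 leave-one-out fits). Dusp4 read 6.72 in injected array 2 and 7.40 and 7.48 in the other injected arrays, overlapping OT-2 at 6.55 to 7.05, and did not pass (0.48, adjusted p = 0.164). Dusp6 (0.06), Spry1 (0.09) and Spry2 (0.14), ERK inhibitor genes, did not pass either. Spred2, another ERK pathway inhibitor gene, passed after quantile normalization only (0.35, adjusted p = 0.0484).

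Genes of NF-kB and its feedback rose together. Of 20 with a symbol 16 rose, 0 fell and 4 did not pass, and the same 16 rose with both scalings (median 0.80 as deposited and 0.91 after quantile normalization), 10 of them in all 6 leave-one-out fits. The members divide into the subunits, the inhibitors they induce, and upstream or downstream regulators. For 4 of the inhibitor and subunit genes that rose, the 250 bases before a gene start are shown, since a motif of this factor lies in each. They are from RefSeq, build GRCm38.p6, 5′ to 3′, with matches to the letters GGG, any 3 bases, then TTCC on either strand in capitals. Where a gene has several starts, the one printed is the first listed with a match. The windows are Tnfaip3 at chr10:19015411-19015660, minus strand, Nfkb2 at chr19:46304487-46304736, plus strand, Nfkbid at chr7:30422156-30422405, plus strand, and Nfkbia at chr12:55492648-55492897, minus strand.
Tnfaip3: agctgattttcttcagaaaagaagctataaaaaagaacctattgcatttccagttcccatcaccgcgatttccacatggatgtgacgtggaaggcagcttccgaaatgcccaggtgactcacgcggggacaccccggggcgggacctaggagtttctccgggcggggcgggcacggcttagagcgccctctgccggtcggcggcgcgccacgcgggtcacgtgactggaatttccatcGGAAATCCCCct
Nfkb2: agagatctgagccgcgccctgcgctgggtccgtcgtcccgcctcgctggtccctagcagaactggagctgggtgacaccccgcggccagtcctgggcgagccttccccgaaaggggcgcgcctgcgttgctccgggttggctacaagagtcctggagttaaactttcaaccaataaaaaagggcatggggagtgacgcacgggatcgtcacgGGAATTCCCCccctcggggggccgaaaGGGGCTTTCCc
Nfkbid: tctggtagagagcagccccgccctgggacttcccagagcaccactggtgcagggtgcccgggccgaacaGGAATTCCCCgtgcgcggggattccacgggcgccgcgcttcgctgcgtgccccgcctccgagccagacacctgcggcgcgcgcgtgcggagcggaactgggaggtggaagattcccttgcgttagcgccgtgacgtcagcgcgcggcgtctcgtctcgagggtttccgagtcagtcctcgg
Nfkbia: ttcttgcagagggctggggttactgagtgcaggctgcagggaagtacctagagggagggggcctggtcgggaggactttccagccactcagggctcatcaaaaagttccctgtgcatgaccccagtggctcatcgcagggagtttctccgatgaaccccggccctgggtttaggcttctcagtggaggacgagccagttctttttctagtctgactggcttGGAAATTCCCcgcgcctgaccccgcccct
The match begins 12 bases before the start in Tnfaip3, 38 and 11 bases before in Nfkb2, 181 before in Nfkbid and 29 before in Nfkbia. Over RefSeq windows from 250 bases before to 50 after a start, 1825 of 32851 hold a match (5.56%), and of the 21 windows of list members 11 do. Of the 20 genes 15 had such a window and 8 a match in at least 1 (Nfkb2, Rel, Nfkbia, Nfkbid, Nfkbie, Tnfaip3, Tnip1 and Traf3). All 8 rose, as did 3 of the 7 without a match (Tnip2, Birc3 and Icam1). The list was put together from genes of NF-kB and its feedback, with earlier results known. These shares and calls are therefore not independent evidence. A match is a description of the letters and not a bound site.

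Among the subunits, Rel, which codes for c-Rel, read 7.92, 7.72 and 8.18 in OT-2 and 9.54, 9.21 and 10.23 after peptide and rose by 1.72 ± 0.25 (3.3-fold, adjusted p = 0.0101). Nfkb2 (1.53 ± 0.15, adjusted p = 0.0057), Relb (1.52 ± 0.14, adjusted p = 0.0050) and Nfkb1 (1.15) rose as well. In these 4 genes injected array 3 was the highest. The largest rise among the inhibitors was that of Nfkbid, the gene of a nuclear IkB protein, from 7.27, 7.28 and 7.72 to 9.01, 9.02 and 9.73 (1.83 ± 0.22, 3.55-fold, adjusted p = 0.0076). Nfkbia, the gene of the cytoplasmic inhibitor, read 10.16, 10.20 and 10.43 in OT-2 and 11.12, 10.99 and 11.04 after peptide (0.79 ± 0.09, adjusted p = 0.0076). Tnfaip3, which codes for the deubiquitinase A20, rose by 1.06 ± 0.09 (adjusted p = 0.0049), Nfkbiz by 0.90 ± 0.09 (adjusted p = 0.0065) and Birc3, a ubiquitin ligase gene, by 0.81 ± 0.07 (adjusted p = 0.0049). Icam1, the adhesion receptor gene and a classical NF-kB target, had array values of 7.50, 7.57 and 7.57 against 8.83, 8.81 and 8.87 (1.29 ± 0.07, adjusted p = 9.65e-04). The 4 genes that did not pass were Bcl3 (0.58), Traf4 (0.34), Birc2 (0.01) and Traf1, which read 7.52 to 7.55 in OT-2 and 7.19 to 7.90 after peptide (-0.01, and 0.03 after quantile normalization).

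Of 7 genes of the TNF family, costimulation and agonist selection 4 rose and 3 did not pass with either scaling, with medians of 0.97 and 0.98. Besides Gadd45b the 4 were Tnfrsf9 (4-1BB), Tnfrsf4 (OX40) and Cd200. Tnfrsf9, a costimulatory receptor gene, read 5.94 to 6.13 in OT-2 and 7.43, 7.48 and 9.19 after peptide. It rose by 2.03 ± 0.44 (4.08-fold, adjusted p = 0.0232), with most of the spread from injected array 3, and passed in 3 of 6 leave-one-out fits. Without injected array 3 the change was 1.45. Tnfrsf4 rose by 1.01 ± 0.20 (adjusted p = 0.0194) and Cd200, the gene of an inhibitory ligand, by 0.78 ± 0.17 (adjusted p = 0.0261), passing in 4 and 1 of 6 leave-one-out fits. Icos, a costimulatory receptor gene, read 6.43 to 7.31 and 7.14 to 8.13 and did not pass (0.97, adjusted p = 0.0659). Il2ra, which codes for CD25 of the high-affinity interleukin receptor, read 9.00 to 9.41 in OT-2 and 8.68 to 9.56 after peptide and did not pass (-0.21, adjusted p = 0.531). Of 2 named cytokine genes, Tnf rose with both scalings (0.79 ± 0.16, adjusted p = 0.0205, passing in 2 of 6 leave-one-out fits) and Ltb did not pass (0.22).

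Of 8 pro-apoptotic genes 2 rose, 3 fell and 3 did not pass with either scaling. Bcl2l11, which codes for the BH3 protein Bim, read 8.75, 8.63 and 8.71 in OT-2 and 10.64, 10.49 and 10.56 after peptide, a rise of 1.87 ± 0.07 (3.65-fold, adjusted p = 3.32e-04). The groups lay far apart and their arrays were close together, and the change was 1.83 to 1.90 whichever array was left out. Bbc3, the gene of the BH3 protein Puma, rose by 0.44 ± 0.07 (adjusted p = 0.0128). Bmf, another BH3 gene, read 9.58 to 9.59 in OT-2 and 10.00, 10.46 and 9.41 after peptide and did not pass (0.37, adjusted p = 0.281). Among the 3 that fell were the death ligand gene Tnfsf10 (-0.48 ± 0.07, adjusted p = 0.0103) and Phlda1 (-0.88 ± 0.19, adjusted p = 0.0236), a pleckstrin-domain gene linked to T cell death, which passed in 2 of 6 leave-one-out fits where Bbc3 and Tnfsf10 passed in 5. Among 8 survival genes 3 rose and 0 fell as deposited, and 4 rose and 0 fell after quantile normalization, the fourth being the kinase gene Pim1 (0.45, adjusted p = 0.0405). Gimap4, a lymphocyte GTPase gene placed in this list whose own role in survival was not tested, read 6.83, 6.89 and 7.74 in OT-2. After peptide it read 8.91, 8.69 and 9.88 (2.01 ± 0.35, 4.03-fold, adjusted p = 0.0145). Bcl2, the gene of the anti-apoptotic partner of Bim, rose by 0.78 ± 0.13 (adjusted p = 0.0136) and Bcl2a1d by 1.33 ± 0.29 (adjusted p = 0.0235); the latter has near-identical neighbours that its probes may not separate. Gimap4 and Bcl2 passed in 4 and Bcl2a1d in 2 of 6 leave-one-out fits. Bcl2l1, which codes for Bcl-xL, did not pass (-0.23, adjusted p = 0.336).

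Inhibitory receptors and negative tuners were called in 7 of 13 cases, 6 that rose and 1 that fell (median 0.33; 7 and 0 after quantile normalization). Cd274, the gene of the ligand PD-L1, read 7.85, 7.64 and 8.06 in OT-2 and 9.56, 9.24 and 9.64 after peptide and rose by 1.64 ± 0.14 (3.11-fold, adjusted p = 0.0049). Its receptor gene Pdcd1 rose by 1.05 ± 0.14 (adjusted p = 0.0091), Btla by 1.12 ± 0.09 (adjusted p = 0.0045) and Tigit by 0.65 ± 0.09 (adjusted p = 0.0092). Ptpn6, the gene of the phosphatase SHP-1, rose by 0.47 ± 0.07 (adjusted p = 0.0094) and Ubash3a, a phosphatase gene that dampens receptor signals, by 0.32 ± 0.07 (adjusted p = 0.0264). Of the 7, all but Ubash3a (1 of 6) and Sla2 (2 of 6) passed in every leave-one-out fit. Sla2, an adaptor gene that lowers receptor levels, fell as deposited (-0.34) and did not pass after quantile normalization (-0.24, adjusted p = 0.0729). Cd5 read 11.37 to 11.63 in OT-2 and 12.08, 11.53 and 11.80 after peptide; these overlapped and did not pass (0.34, adjusted p = 0.135). Lag3 (-0.35) did not pass. Of 11 genes of the receptor signalling machinery 4 rose and 0 fell with both scalings: the adaptor gene Sh3bp2 (0.94), the calcium channel gene Orai1 (0.76), the phosphatase gene Ptpn2 (0.63) and the kinase gene Prkch (0.31), which passed in 6, 3, 6 and 1 of 6 leave-one-out fits.

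**Figure D3:**
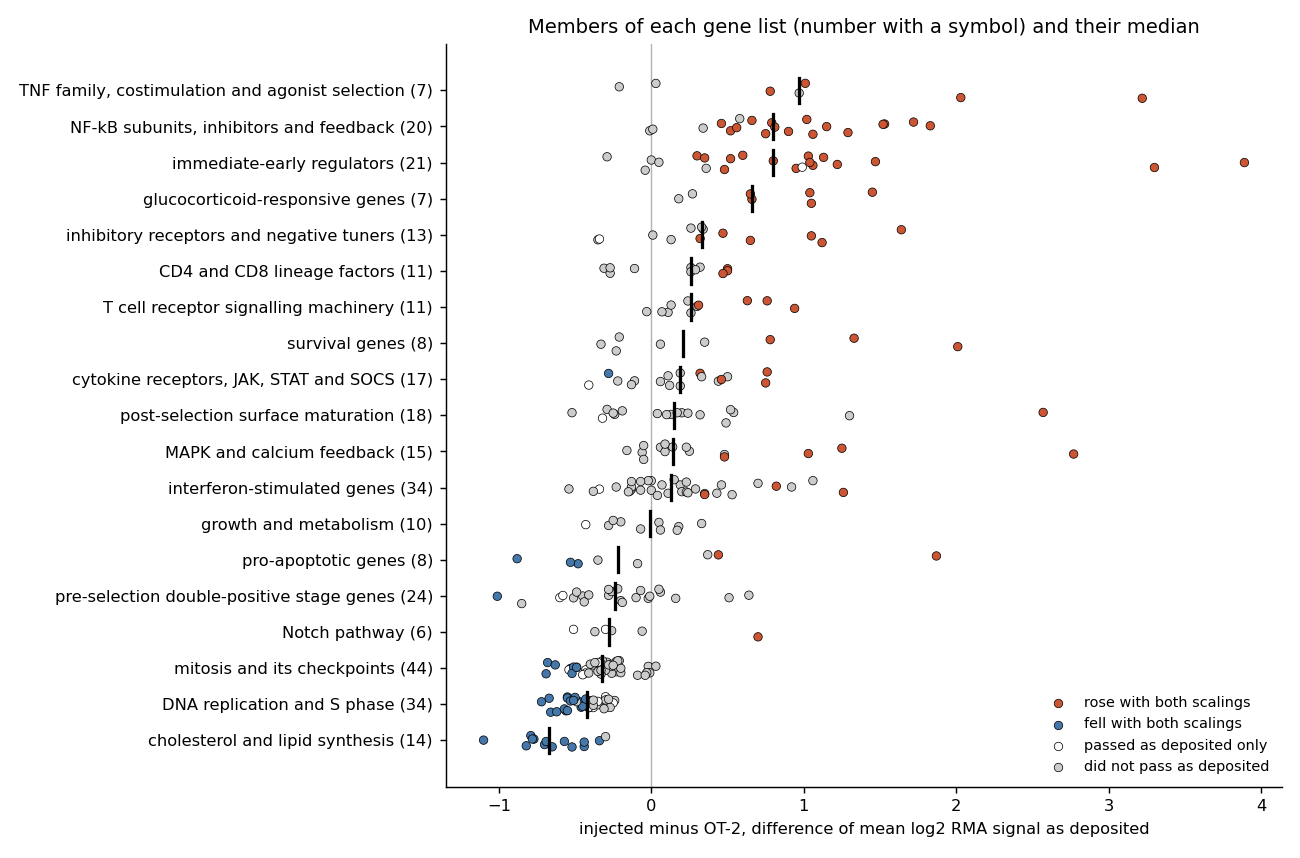
The change of each named member of the gene lists with 6 or more members (x axis, injected minus OT-2 in log2, as deposited), one row per list with the number of named members in parentheses; black bars are list medians and colours show the call. The list medians run from -0.67 for cholesterol and lipid synthesis to 0.97 for the TNF family, costimulation and agonist selection.

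Genes of later maturation and of lineage choice were mostly not called. Of 18 post-selection surface genes 1 rose, Cd69, 1 fell as deposited, Ms4a4b, and 16 did not pass, with a median of 0.15. After quantile normalization 2 rose, Cd69 and the integrin gene Itga4 (0.27, adjusted p = 0.0478), and 0 fell. Ccr7, the chemokine receptor gene of cells leaving the cortex, read 7.53 to 8.06 in OT-2 and 7.61 to 8.13 after peptide (0.10, adjusted p = 0.714). Ly6a spread from 7.83 to 9.64 over the injected arrays, above 7.48 to 7.59 in OT-2, and did not pass (1.30, adjusted p = 0.0592). Among 11 factors of the CD4 and CD8 lineages Patz1 (0.50), Ikzf1 (0.50) and Socs1 (0.47) rose and 0 fell, and Patz1 passed in every leave-one-out fit, Ikzf1 in 5 and Socs1 in 4. After quantile normalization 4 rose and 0 fell, with the factor gene Lef1 (0.49, adjusted p = 0.0448) as the fourth. Gata3, the CD4 lineage factor gene, read 10.16 to 10.33 and 10.26 to 10.79 and did not pass (0.32, adjusted p = 0.153).

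Of 24 genes of the pre-selection stage 0 rose and 3 fell as deposited, and 1 fell after quantile normalization (medians -0.24 and -0.11). That gene was Ptcra, which codes for the pre-T cell receptor alpha chain and is expressed before the alpha chain is rearranged. It read 9.41, 9.51 and 9.16 in OT-2 and 8.15, 8.52 and 8.37 after peptide, a fall of -1.01 ± 0.13 (adjusted p = 0.0080). Themis, a signalling gene of double-positive cells, changed by -0.60 (adjusted p = 0.0211) and by -0.40 after quantile normalization (adjusted p = 0.0888). Rag1 (-0.45, adjusted p = 0.0572) and Rag2 (-0.44, adjusted p = 0.0659) did not pass. Of 6 genes of the Notch list, the target gene Hes1 (-0.51) and its relative Hes6 (-0.30) fell as deposited and did not pass after quantile normalization, where the adjusted p was 0.05 when rounded and 0.0803. Maml2, a coactivator gene of the pathway, rose with both scalings (0.70 ± 0.18, adjusted p = 0.0379, passing in 1 of 6 leave-one-out fits).

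Cytokine signalling genes gave 4 rises and 2 falls among 17 as deposited, and 8 and 1 after quantile normalization. Over all named probe sets 10.8% rose and 21.2% fell as deposited, and 13% and 14.6% after quantile normalization. Jak3, the kinase gene of the common gamma chain, read 7.96 to 8.21 in OT-2 and 8.71 to 9.00 after peptide (0.75 ± 0.11, adjusted p = 0.0093). Il27ra (0.76 ± 0.10, adjusted p = 0.0083), Stat6 (0.46 ± 0.07, adjusted p = 0.0116) and Il21r (0.32 ± 0.08, adjusted p = 0.0332) rose, and Il18r1 (-0.28 ± 0.07, adjusted p = 0.0419) fell. Jak3 and Il27ra passed in all 6 leave-one-out fits, Stat6 in 5, Il21r in 1 and Il18r1 in 0. Ifngr1, the interferon gamma receptor gene, fell as deposited (-0.41) and not after quantile normalization (-0.17, adjusted p = 0.308). Among 34 interferon-stimulated genes 3 rose, 1 fell and 30 did not pass, with a median of 0.13. After quantile normalization 5 rose and 0 fell, Gbp6 (0.41, adjusted p = 0.0273) and Zbp1 (0.31, adjusted p = 0.0430) being added. Irf1, the factor gene, read 8.93 to 9.05 in OT-2 and 10.12, 10.75 and 9.85 after peptide and rose by 1.26 ± 0.21 (adjusted p = 0.0130). Gbp3 (0.82), a guanylate-binding gene, and Parp14 (0.35) rose too, and Samd9l (-0.34) fell as deposited only. Irf1 passed in 5 of 6 leave-one-out fits, Gbp3 in 2 and the others in 1 each. Injected array 2 was the highest array for Irf1, Gbp3, Tgtp1 (10.79 against 9.54 and 9.62), Iigp1 (8.31 against 6.80 and 7.28) and Irgm1 (9.73 against 8.87 and 8.87). Of the last 3, immunity-related GTPase genes, none passed.

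Genes that glucocorticoids are known to induce were higher in all 7 cases with a symbol, and 5 of them rose with both scalings (median 0.66). Zfp36l2, an RNA-binding gene, read 8.84, 8.86 and 8.79 in OT-2 and 10.50, 10.70 and 9.66 after peptide (1.45 ± 0.24, adjusted p = 0.0133). Tsc22d3, which codes for the leucine zipper protein GILZ, read 6.92, 6.98 and 6.98 against 8.27, 8.34 and 7.40 (1.04 ± 0.23, adjusted p = 0.0256), and Pik3ip1, the gene of a kinase inhibitor, 9.38, 9.39 and 9.49 against 10.24, 10.31 and 9.70 (0.66 ± 0.16, adjusted p = 0.0318). Injected array 3 was the lowest of its group in these 3 genes and still above every OT-2 array. The circadian repressor gene Per1 (1.05 ± 0.10, adjusted p = 0.0055) and Klf13 (0.65 ± 0.07, adjusted p = 0.0062) passed in every leave-one-out fit, Zfp36l2 in 4, and Tsc22d3 and Pik3ip1 in 1 each. Fkbp5, a chaperone gene, read 11.11, 11.83 and 11.16 after peptide and did not pass (0.27, adjusted p = 0.321).

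Genes of sterol and fatty acid synthesis fell. Of 14 with a symbol 0 rose, 13 fell and 1 did not pass, and the same 13 fell after quantile normalization, with medians of -0.67 and -0.60 beside -0.10 and -0.03 over all named probe sets. Of the 13, 8 passed in all 6 leave-one-out fits. Scd2, a fatty acid desaturase gene, had the largest fall of any named gene as deposited (after quantile normalization it was -0.94, beside -1.01 for Iftap), from 11.26, 11.33 and 11.35 to 9.99, 10.30 and 10.34 (-1.10 ± 0.10, adjusted p = 0.0055). Msmo1, a sterol oxidase gene, read 9.65, 9.73 and 9.69 in OT-2 and 8.87, 8.92 and 8.80 after peptide (-0.82 ± 0.07, adjusted p = 0.0045). Idi1 (-0.79), Fdft1 (-0.65), Fdps (-0.57), Hmgcs1 (-0.52), Mvk (-0.44), Nsdhl (-0.44) and Lss (-0.34), enzymes of the mevalonate and sterol pathway, fell. So did Insig1 (-0.77), whose product helps to retain the factor SREBP. Abca1 (-0.69 ± 0.08, adjusted p = 0.0067) and Abcg1 (-0.78), which are cholesterol exporters and known targets of the oxysterol receptor LXR rather than of SREBP, fell as well. Mvd did not pass (-0.30, adjusted p = 0.093). The desaturase gene Fads2, outside the list, read 8.75, 8.85 and 8.66 against 7.67, 7.86 and 8.20 (-0.85 ± 0.14, adjusted p = 0.0125).
The windows of Hmgcs1 at chr13:119690101-119690350, plus strand, and Msmo1 at chr8:64733579-64733828, minus strand, are shown as above because these letters are those of elements through which SREBP and its partner NF-Y are known to act. Capitals mark TCACNCCAC in Hmgcs1 and CCAAT in Msmo1, on either strand.
Hmgcs1: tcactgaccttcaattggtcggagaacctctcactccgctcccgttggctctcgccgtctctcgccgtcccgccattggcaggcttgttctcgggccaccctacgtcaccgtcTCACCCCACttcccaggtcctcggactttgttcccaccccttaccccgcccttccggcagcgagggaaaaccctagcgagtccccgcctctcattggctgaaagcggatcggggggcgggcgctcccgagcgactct
Msmo1: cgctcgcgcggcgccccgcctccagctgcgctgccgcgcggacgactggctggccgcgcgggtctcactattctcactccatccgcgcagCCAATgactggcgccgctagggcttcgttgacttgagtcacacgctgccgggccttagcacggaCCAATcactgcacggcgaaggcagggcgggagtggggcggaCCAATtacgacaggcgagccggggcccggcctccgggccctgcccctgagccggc
TCACNCCAC was found in 1 of the 9 list members with a window, Hmgcs1, and in 1.24% of all windows. CCAAT was found in 8 of the 9, of which 7 fell, as did the 1 without it, and in 37.4% of all windows. No match says only that these letters are not in the window.

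Of 34 genes of DNA replication and S phase all were lower with both scalings, where 60.7% of all named probe sets were lower as deposited and 53.5% after quantile normalization. Of the 34, 0 rose, 21 fell and 13 did not pass as deposited, and 17 fell after quantile normalization, 16 of them with both scalings (medians -0.42 and -0.38), beside 21.2% and 14.6% of all named probe sets that fell. In all 6 leave-one-out fits 6 of the 21 passed. Ccne2, the gene of cyclin E2, read 8.02, 7.91 and 7.93 in OT-2 and 7.08, 7.37 and 7.26 after peptide (-0.72 ± 0.09, adjusted p = 0.0081). Orc6, a gene of the origin recognition complex, read 9.51, 9.50 and 9.56 against 8.79, 8.80 and 8.98 (-0.67 ± 0.08, adjusted p = 0.0075), and Gins1, of the replicative helicase, 8.31, 8.28 and 8.38 against 7.67, 7.66 and 7.65 (-0.66 ± 0.07, adjusted p = 0.0061). The clamp loader genes Rfc4 (-0.55) and Rfc3 (-0.46), the histone chaperone gene Chaf1b (-0.51) and the nucleotide reductase gene Rrm1 (-0.45) fell too. Mcm6 (-0.41), Tyms (-0.49) and Uhrf1 (-0.40) did not pass, and in each injected array 3 was the highest of its group. Tipin, a replication fork gene outside the list, read 9.67, 9.61 and 9.74 against 8.84, 8.80 and 8.76 (-0.87 ± 0.07, adjusted p = 0.0044).
The letters TTTNGCGC, a form of the E2F element, are in capitals in the windows of Rfc3 at chr5:151651209-151651458, minus strand, and Mcm5 at chr8:75109259-75109508, plus strand, where matches on the opposite strands overlap.
Rfc3: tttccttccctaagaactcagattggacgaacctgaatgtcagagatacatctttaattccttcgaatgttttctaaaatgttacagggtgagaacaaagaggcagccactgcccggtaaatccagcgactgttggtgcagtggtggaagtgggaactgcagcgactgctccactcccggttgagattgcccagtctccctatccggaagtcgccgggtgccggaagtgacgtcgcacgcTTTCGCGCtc
Mcm5: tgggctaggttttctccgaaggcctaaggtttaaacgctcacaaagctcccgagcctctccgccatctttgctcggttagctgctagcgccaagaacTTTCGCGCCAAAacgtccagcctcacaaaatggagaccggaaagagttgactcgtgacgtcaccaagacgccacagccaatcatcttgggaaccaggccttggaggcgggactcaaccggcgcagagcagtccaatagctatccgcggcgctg
Of 27 replication genes with a window 9 held these letters and 3 of the 9 fell, while 14 of the 18 without them fell. Of the windows of list members 9 of 31 held them, and of all windows 1.38%.

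In the list of mitosis and its checkpoints 43 of 44 genes were lower, 0 rose and 13 fell as deposited, and after quantile normalization 38 were lower and 7 fell (medians -0.33 and -0.23). The 7 of 44 are a share near the 14.6% of all named probe sets that fell with that scaling. Spc25 alone of the 13 passed in all 6 leave-one-out fits. Cdk1, the mitotic kinase gene, read 9.68, 9.43 and 9.43 in OT-2 and 8.64, 8.92 and 8.91 after peptide (-0.69 ± 0.11, adjusted p = 0.0119). The kinetochore genes Cenpk (-0.68), Spc25 (-0.63), Cenpa (-0.51) and Nuf2 (-0.49), the motor gene Kif11 (-0.52) and cyclin B2, Ccnb2 (-0.53), fell with both scalings. Mad2l1, a spindle checkpoint gene, passed as deposited only (-0.43, and -0.26 with adjusted p = 0.0972 after quantile normalization). Mki67 (-0.09, and 0.09 after quantile normalization) and Cenpf (-0.01 and 0.08), proliferation marker genes, did not pass. The tubulin genes Tubb2b (-0.96 ± 0.06, adjusted p = 0.0022) and Tubb2a (-0.68 ± 0.07, adjusted p = 0.0067), near copies whose probes may be shared, fell. Of 10 genes of growth, glycolysis and ribosome biogenesis 1 fell as deposited, Npm1 (-0.43), and 1 rose after quantile normalization, Tfrc (0.43, adjusted p = 0.0431). Tpi1, a glycolytic enzyme gene outside that list (-0.90 ± 0.14, adjusted p = 0.0117), and Impdh2, of guanine nucleotide synthesis (-0.84 ± 0.14, adjusted p = 0.0132), were among the largest falls, as were H2-T10 (-0.93 ± 0.09, adjusted p = 0.0055), a class Ib gene with near copies, the linker histone gene H1f0 (-0.90 ± 0.16, adjusted p = 0.0150), Iftap (-1.01 ± 0.23, adjusted p = 0.0268) and Cdkl1 (-0.87 ± 0.17, adjusted p = 0.0175). Tubb2b, Tubb2a and H2-T10 passed in every leave-one-out fit, Tpi1 in 5, Impdh2 in 4, H1f0 and Cdkl1 in 3 and Iftap in 2.

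Hdac7, the deacetylase gene that the series manipulates in other mice, read 10.65, 10.68 and 10.60 in OT-2 and 10.47, 10.30 and 10.92 after peptide. The arrays overlapped and the change of -0.08 ± 0.15 did not pass (adjusted p = 0.727, and 0.10 after quantile normalization). Hdac5 did not pass either (0.04, and -0.02 after median centring).

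The wild-type arrays 1 to 3 carry the same 3 decimals as the injected arrays and lie in the same set of columns, so the same injected arrays were also set against them. This comparison differs by the receptor transgene as well as by peptide, and it shares the injected arrays with the first, so values stand side by side with no measure of likeness. It called 1667 probe sets (5.76%; 3.49% rose and 2.28% fell; 1009 rose and 658 fell, and 814 and 810 after median centring), and 688 with a symbol (32.6%; 18.1% rose and 14.5% fell). The count of 1667 was 459 and 577 without injected arrays 1 and 2, and 995 and 430 without wild-type arrays 1 and 3. Nr4a1 read 8.86 to 9.12 in wild type and was 2.74 ± 0.14 higher after peptide, where the difference from OT-2 was 3.30. For Bcl2l11 the differences were 1.69 ± 0.10 from wild type and 1.87 from OT-2, and for Cd69 3.31 ± 0.20 and 2.57. The NF-kB list had 13 of 20 members that rose against wild type, with a median of 0.90, and the immediate-early list 15 that rose and 1 that fell of 21, with a median of 0.78.

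Several lists stood at other values against wild type, a difference between controls that was not tested. In the cholesterol list 3 of 14 fell and 0 rose against wild type, and the median was -0.05, where it was -0.67 against OT-2. Msmo1 read 8.69, 8.57 and 8.24 in wild type, 9.65 to 9.73 in OT-2 and 8.80 to 8.92 after peptide, so that the injected arrays lay below OT-2 and above wild type. Scd2 was lower after peptide than in either control (-0.93 ± 0.14 from wild type, adjusted p = 0.0114). Among the 12 largest falls against OT-2, Iftap (-1.13) and Tubb2b (-1.02) also fell against wild type. H2-T10 (-0.00), Tpi1 (-0.16), H1f0 (-0.16), Tipin (-0.06), Cdkl1 (-0.42), Impdh2 (-0.36), Fads2 (-0.50) and Phlda1 (0.25) did not pass against wild type. In the replication list 9 of 34 fell against wild type (median -0.41), and Orc6, Gins1 and Ccne2 were -0.19, -0.20 and -0.20 from wild type and did not pass. Among interferon-stimulated genes 28 of 34 rose against wild type and 3 against OT-2, with medians of 1.14 and 0.13. Pre-selection genes gave 3 that rose and 12 that fell of 24 against wild type, with a median of -0.73, and maturation genes 10 that rose of 18. Of the 11 CD4 and CD8 lineage factors 2 rose and 3 fell against wild type, with a median of -0.35, where it was 0.26 against OT-2. Socs1, which rose against OT-2, was lower than in wild type (-0.85 ± 0.13, adjusted p = 0.012). Patz1 (-0.35) and Ikzf1 (0.13) did not pass against wild type. In the glucocorticoid list 5 of 7 rose and 0 fell against wild type, while Klf13 (-0.68) did not pass. Il2ra read 5.89 to 6.74 in wild type, 9.00 to 9.41 in OT-2 and 8.68 to 9.56 after peptide. Ptcra, which fell against OT-2, was 0.56 ± 0.12 higher than in wild type (adjusted p = 0.0377).

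**Figure D4:**
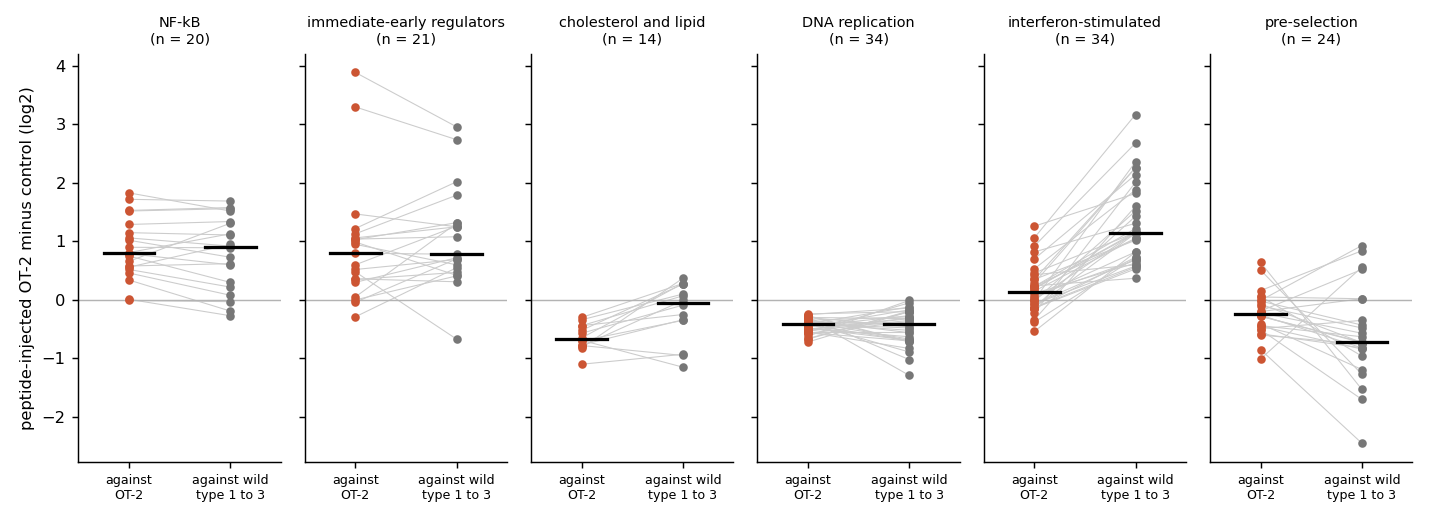
The difference in log2 signal (y axis) of the peptide-injected arrays from OT-2 and from wild type 1 to 3 for the named members of 6 lists; each pair of points joined by a line is one gene and black bars are medians. The cholesterol and lipid list has a median of -0.67 against OT-2 and -0.05 against wild type, and the interferon list 0.13 and 1.14.

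In the injected mice with the HDAC7 deltaP transgene, whose arrays form another normalization set, the peptide-responsive genes were read without a test. Nr4a1 read 9.10, 7.85 and 8.28 there, against 11.62 to 12.03 in the injected OT-2 arrays. Nr4a3 read 6.84, 5.83 and 6.46, and Bcl2l11 9.81, 9.33 and 9.24, between OT-2 (8.63 to 8.75) and injected OT-2 (10.49 to 10.64). Cd69 read 10.51, 9.80 and 9.94, likewise between both groups. Tigit read 7.59, 7.07 and 7.40 there beside 7.07 to 7.35 in injected OT-2. The genes that fell did not read alike there. For Scd2 the readings were 10.89, 10.84 and 11.00, between injected OT-2 (9.99 to 10.34) and OT-2 (11.26 to 11.35). Msmo1 read 8.85, 8.78 and 8.77, close to injected OT-2 (8.80 to 8.92). Ptcra read 8.45, 8.09 and 8.25, also close to injected OT-2 (8.15 to 8.52).

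The authors' deposited table of this comparison lists 223 probe sets as upregulated and 241 as downregulated, of which 222 and 239 were tested here. Of these the values as deposited gave the same call for 195 and 227, both scalings gave it for 188 and 206, and 0 were called the opposite way as deposited. Over 2280 probe sets with a ratio, the log2 of the ratio in the authors' deposited table differed from the change here by a median of 0.092 as deposited and 0.073 after quantile normalization. The authors' deposited table gives a ratio of 10.9 for Nr4a1, 13.8 for Nr4a3, 3.86 for Bcl2l11 and 0.455 for Scd2. Msmo1 stands in the authors' deposited table at 0.621 and Ptcra at 0.612.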

How the data were processed

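Expression arrays of sorted double-positive thymocyte RNA were used, 3 of peptide-injected OT-2 and 3 of OT-2 mice. The authors deposited log2 values made with RMA in Affymetrix Expression Console, per the submitters' processing notes, in normalization groups that follow the comparisons, per the series' design text. Their table of this comparison gives a ratio of injected over control, a SAM score and a q value in percent, per the deposited readme. Their versions were not given in the sources used here. Of 35556 rows, 6612 with identifiers below 10344614 were left out, since the authors' 4 tables, with 2301 rows, have 0 there. From 28944 others 21 second probe sets of a gene were dropped, leaving 28923. Symbols came from the authors' tables (updated through RefSeq): 1918 rows by accession, 116 by current symbol, 61 by synonym and 37 as in the file, while 160 had none and 9 several. The rest, 26812 rows tested, carry no symbol.

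Groups were fitted with limma 3.58.1 (lmFit and eBayes, R 4.3.3), without a block and on the arrays compared, with Benjamini-Hochberg adjustment over all rows and a threshold of 0.05. Alternatives were quantile normalization, median centring, a trend in eBayes, all probe sets, probe sets above the median, the replicate block and leaving out each array. Genes named are the 12 largest rises and falls that pass with both scalings, do not overlap between groups and lie above the median, up to 8 members of each list that pass and up to 3 that do not, Hdac7 and the markers; other list members, and genes outside the lists in the closing section, were chosen after their values were seen. Members and lists were chosen with earlier results of these data known. T cell receptor segments were counted and not named (5 of 23 called). A few list members are counted in their lists but not reported here by name. Figures were made with python 3.11.15, numpy 2.4.6, pandas 2.3.3 and matplotlib 3.10.9.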

Additional observations from a re-analysis of the deposited data

How the results depend on the processing

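Of 139 called genes named in the text or by its rule, the call was the same in 139 with an eBayes trend, 135 with arrays centred on their medians and 128 after quantile normalization, and in 102, 118 and 127 when injected replicates 1, 2 and 3 were omitted singly and 64, 86 and 99 for OT-2 replicates 1, 2 and 3. The 5631 probe sets called against OT-2 became 3721 after quantile normalization (1707 rose, 2014 fell), 3186 among probe sets above the median (753 rose, 2433 fell), and 748 to 4655 with 1 array left out (2274 without injected replicate 1, 748, 1542 and 2115 without OT-2 replicates 1, 2 and 3). Centring gave 2045 that rose and 4755 that fell, a different split. Replicate numbers did not pair the arrays (correlations of deviations between same-numbered arrays -0.077, -0.059 and 0.094), and with the replicate block 3329 were called, 1769 that rose and 1560 that fell, with 128 of the 139 calls the same. Against wild type 1 to 3 the 1667 called became 1423 with the replicate block and 430 to 1381 with 1 array left out (459 and 577 without injected replicates 1 and 2, 995 and 430 without wild-type replicates 1 and 3). The causes were not tested.

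Among the genes reported, signs turned only for small changes that did not pass: after quantile normalization Cd8b1 (0.00), Cenpf (0.08), Dtx3l (0.03), Gzma (0.07), Hdac7 (0.10), Mki67 (0.09), Thy1 (0.04) and Traf1 (0.03), and with centring Birc2 (-0.05), Dusp6 (-0.01), Hdac5 (-0.02), Myc (-0.01) and Tnfrsf21 (-0.03). With 1 array left out the ranges crossed 0 for Birc2 (-0.04 to 0.06), Ccr7 (-0.03 to 0.24), Cd44 (-0.11 to 0.53), Cenpf (-0.08 to 0.13), Ddit3 (-0.26 to 0.01), Dtx3l (-0.15 to 0.04), Dusp6 (-0.07 to 0.26), Gzma (-0.27 to 0.31), Hdac7 (-0.26 to 0.05), Lyn (-0.19 to 0.34), Mki67 (-0.24 to 0.06), Myc (-0.23 to 0.29), Spry1 (-0.10 to 0.20), Tnfrsf21 (-0.07 to 0.14), Traf1 (-0.20 to 0.15) and Vim (-0.08 to 0.17).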

Other observations

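Genes outside the lists, chosen after their values were seen, added regulators to those that rose. Trib1, a pseudokinase gene, read 6.67, 6.84 and 6.65 in OT-2 and 8.10, 8.24 and 8.21 after peptide (1.46 ± 0.08, adjusted p = 0.0014). Etv5, an ETS factor gene downstream of ERK, read 6.22, 5.97 and 6.04 against 7.44, 7.35 and 7.80 (1.45 ± 0.13, adjusted p = 0.0050). Hivep3 (1.18), a zinc finger factor gene, Cpt1a (1.15), which brings fatty acids into mitochondria, and Arid5b (1.00), a chromatin gene, rose, as did the RNA regulators Ago2 (0.95), Zfp36l1 (0.85) and Zc3h12a (0.67). Ccnd2, the gene of cyclin D2, read 8.96, 9.28 and 10.60 after peptide beside 8.15 to 8.33 in OT-2 (1.40 ± 0.38, adjusted p = 0.0425) with 1 of 6 leave-one-out fits past the threshold. Gpr65, a proton-sensing receptor gene, rose by 1.01 ± 0.22 (adjusted p = 0.0244). Against wild type 1 to 3, Ago2 (-0.11), Hivep3 (0.73), Zfp36l1 (0.50) and Zc3h12a (0.25) did not pass. The other genes named in this paragraph rose there too.

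Families grouped by symbol, also after their values were seen, had falls and no rises against OT-2. Of all named probe sets 21.2% fell as deposited and 14.6% after quantile normalization, and 303 of 2111 fell with both scalings. Against wild type 1 to 3, 18.1% of named probe sets rose and 14.5% fell. Of 13 genes of the respiratory chain and ATP synthase 10 fell as deposited and 8 after quantile normalization (medians -0.45 and -0.38), among them Ndufs5 (-0.67 ± 0.08, adjusted p = 0.0072), which read 8.12, 8.04 and 7.95 against 7.41, 7.39 and 7.30, and Cox6a1 (-0.67). Against wild type 1 to 3, 5 of the 13 fell. Of 9 mitochondrial ribosome genes 5 fell with both scalings and 0 against wild type (median -0.21). The metabolic genes Suclg2 (-0.69) and Idh2 (-0.49) of mitochondria and Slc16a1 (-0.82), a lactate carrier gene, fell too. Histone genes, which have near copies that probes may share, gave 12 that fell of 26 as deposited and 6 after quantile normalization, such as H1f1 (-0.69). With both scalings 5 of the 26 fell, and against wild type 17 did (median -0.76). Class Ib histocompatibility genes gave 6 that fell of 8 and 4 after quantile normalization, among them H2-T22 (-0.43) and H2-T3 (-0.58), while against wild type 3 of the 8 rose and 0 fell.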
